A study of Mus musculus with 4 samples.

Results

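Neuropeptide precursors are the parent proteins of the small signaling peptides that neurons store in dense-core vesicles. The 10 precursor genes described here, Sst, Npy, Vip, Cck, Tac1, Tac2, Penk, Pdyn, Crh and Cort, were found by exact gene symbol in the annotation of the array. Each had 1 row, so that 10 of the 19938 genes with a row of exactly 1 symbol are covered. The mice were of the ICR strain. Ketamine blocks NMDA receptors, a class of glutamate receptor, and was injected into the peritoneum daily at 30 mg/kg, while control mice received saline. Dosing began at 1 month of age and lasted 3 months. The mice of both groups then swam in a Morris water maze before the prefrontal cortex was dissected. RNA of 2 mice from each group was measured on Affymetrix Mouse Gene ST arrays, with 1 array a mouse.

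The labels do not settle which group is which. In the sample titles 2 arrays are ketamine and the other 2 are saline, while the source field gives these same arrays the opposite treatment. Groups below follow the titles, and every direction would turn round under the source field. For Gabra5, a gene given below for its likeness to Tac1, the direction under the titles is opposite to the one the study gives. The sex is female in the labels and male in the methods.

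The tissue markers also differed between the groups. All 12 cerebellar markers passed as higher on the ketamine-titled arrays, beside 23.4% of all rows tested. Their median log2 difference was 4.01. Their log2 values summed to 121.90 and 119.94 on the ketamine-titled arrays, against 77.76 and 68.74 on the saline-titled arrays. Of 9 cortical projection neuron markers 7 passed as lower, beside 9.71% of all rows tested. The 9 markers summed to 58.18 and 57.95 on the ketamine-titled arrays and to 73.15 and 73.65 on the saline-titled arrays. Tbr1 and Neurod6, transcription factors that define cortical excitatory neurons, read 3.73 and 3.69 and then 3.93 and 4.01 on the ketamine-titled arrays. These 4 values lie at the level of olfactory receptor genes, most of which are known for expression in the nose and which served as a measure of background, although a few are known from brain. Their 95th percentiles over 1035 rows ranged from 4.20 to 4.56 across the arrays. That level serves below as the limit under which the size of a difference is not resolved. The 9 striatal markers all passed as lower, beside the same 9.71% of all rows. They summed to 56.95 and 55.46 on the ketamine-titled arrays and to 72.17 and 72.21 on the saline-titled arrays. Isl1 lay under the limit on both ketamine-titled arrays. The label of prefrontal cortex is therefore not borne out alike on the 4 arrays, and for every gene below, an effect of treatment and a difference in tissue cannot be told apart.

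Somatostatin, neuropeptide Y, vasoactive intestinal peptide (VIP) and cortistatin are made mainly by inhibitory interneurons of the cortex, and cholecystokinin by both interneurons and excitatory cells. In the striatum the projection neurons are divided by their peptides, with substance P (from Tac1) and dynorphin (from Pdyn) in the direct pathway and enkephalin (from Penk) in the indirect pathway. Corticotropin-releasing hormone (CRH) starts the endocrine stress response in the hypothalamus and is also made by cortical interneurons. The peptides are cut from their precursors inside the vesicles, are released on strong firing and act mostly on G-protein-coupled receptors.

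Of the 10 precursor genes, 9 passed as lower on the ketamine-titled arrays and none as higher. Among all 21789 rows tested, 9.71% passed as lower and 23.4% as higher (2115 and 5109 rows). After quantile normalization 3074 rows passed as lower and 3311 as higher, and 9 precursor genes still passed as lower. The test was limma with Benjamini-Hochberg adjustment over all rows, and a gene passed at an adjusted p under 0.05. The median log2 difference of the 10 genes was -1.95, against 0.13 over all rows. All 10 genes read lower on both ketamine-titled arrays than on either saline-titled array, as did 21.5% of all rows. Differences past 1.3-fold, the threshold of the study, were found for 9 of the 10 genes on the lower side, against 9.87% of all rows. Differences past 2-fold were found for 7 of them, against 2.98% of all rows. The study reports far fewer genes past either threshold than the deposited values give here. In such tissue RNA, fewer cells of a type and less RNA per cell cannot be told apart.

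**Figure D1:**
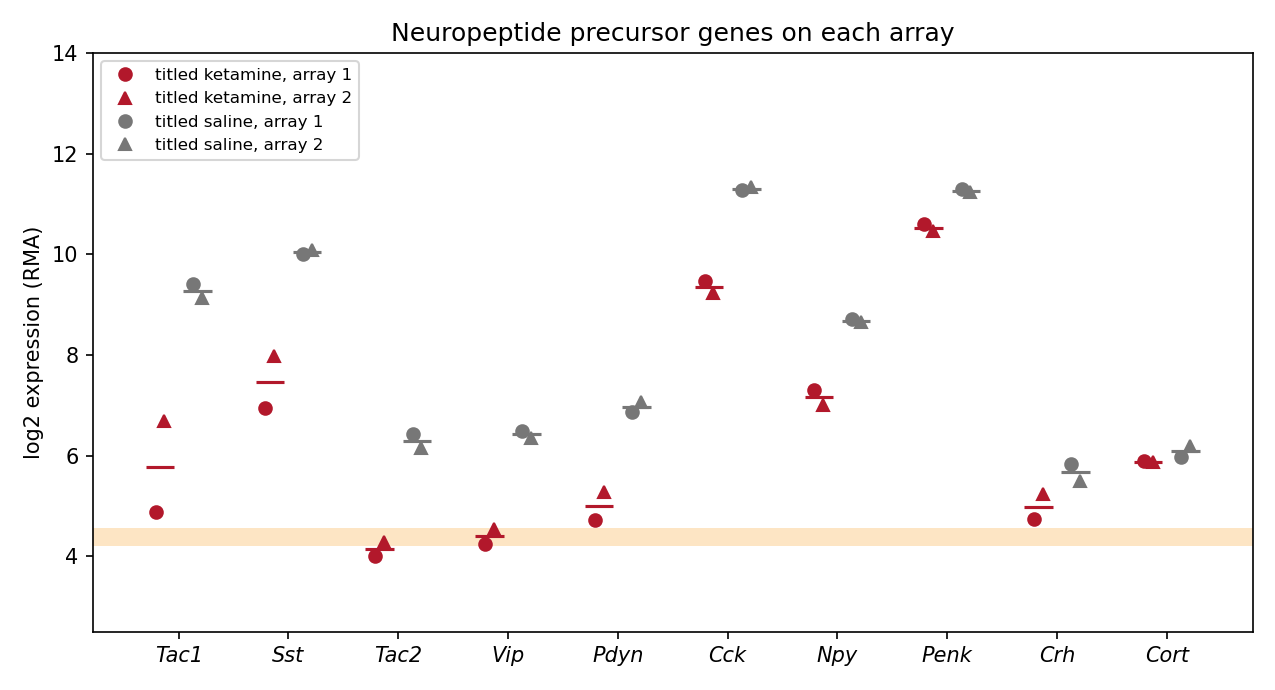
Log2 expression (y axis) of the 10 precursor genes (x axis, ordered by difference) on each of the 4 arrays, red for the ketamine-titled arrays and grey for the saline-titled arrays; bars are group means and the shaded band spans the olfactory receptor limits of 4.20 to 4.56. The red points of each gene lie below its grey points, and both red points of Tac2 and of Vip lie within or under the band.

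Somatostatin, from Sst, is the peptide of dendrite-targeting interneurons and inhibits the release of other transmitters and hormones. Sst read 6.95 and 7.99 on the ketamine-titled arrays, against 10.01 and 10.09 on the saline-titled arrays. The groups were far apart, but the ketamine-titled arrays differed by 1.04 among themselves, and 0.133% of all rows had a larger gap there. The log2 difference was -2.57 (95% confidence interval -3.27 to -1.88, adjusted p = 0.000932 from limma), a 5.95-fold lower level.

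Cortistatin, from Cort, is the closest relative of somatostatin and binds the same receptors. Cort read 5.89 and 5.88 on the ketamine-titled arrays, against 5.98 and 6.19 on the saline-titled arrays. The values did not overlap, yet they lay close together. Its log2 difference of -0.20 (95% confidence interval -0.48 to 0.07, adjusted p = 0.221 from limma) did not pass. The interval lies wholly above that of Sst.

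Neuropeptide Y, from Npy, is found in long-range and neurogliaform interneurons and dampens excitatory transmission. Npy read 7.30 and 7.01 on the ketamine-titled arrays and 8.71 and 8.65 on the saline-titled arrays. The SDs were 0.206 on the ketamine-titled and 0.0389 on the saline-titled arrays (n = 2 each). A larger gap between the ketamine-titled arrays was found for 11.8% of all rows. The log2 difference was -1.52 (95% confidence interval -1.83 to -1.21, adjusted p = 0.000262 from limma), or 2.87-fold lower.

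VIP marks interneurons that inhibit other interneurons. Vip read 4.25 and 4.55 on the ketamine-titled arrays, against 6.49 and 6.36 on the saline-titled arrays. The value of 4.25 was under the olfactory receptor limit of that array (4.56), and the value of 4.55 was just over the limit of the other (4.46). The log2 difference of -2.03 (95% confidence interval -2.34 to -1.71, adjusted p = 9.5e-05 from limma) is thus called but not resolved in size.

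Cholecystokinin, from Cck, is among the most abundant peptides of the cortex and is used by basket cells and by excitatory neurons. Cck read 9.48 and 9.24 on the ketamine-titled arrays, compared with 11.27 and 11.34 on the saline-titled arrays. All 4 values lay far above the limit. The log2 difference was -1.94 (95% confidence interval -2.23 to -1.65, adjusted p = 7.8e-05 from limma), a 3.84-fold lower level.

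Tac1 encodes substance P and neurokinin A and had the largest measured difference of the 10 genes, although the sizes for Vip and Tac2 are not resolved. It read 4.88 and 6.69 on the ketamine-titled arrays, against 9.41 and 9.13 on the saline-titled arrays. Only 17 of the 21789 rows had a more negative difference. The ketamine-titled arrays were 1.82 apart, a gap exceeded by 0.0229% of all rows. The log2 difference was -3.49 (95% confidence interval -4.66 to -2.31, adjusted p = 0.00237 from limma). It was -2.58 without ketamine-titled array 1 and -4.39 without ketamine-titled array 2, so that the size rests on the array kept.

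Tac2 encodes neurokinin B, known for its part in the hypothalamic control of reproduction. Tac2 read 4.0 and 4.29 on the ketamine-titled arrays, both under the olfactory receptor limit, and 6.44 and 6.16 on the saline-titled arrays. The log2 difference was -2.16 (95% confidence interval -2.51 to -1.81, adjusted p = 0.000109 from limma), with its size not resolved.

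The opioid precursors Penk and Pdyn differed in size. Penk, which gives the enkephalins, read 10.61 and 10.46 on the ketamine-titled arrays and 11.29 and 11.23 on the saline-titled arrays. It stayed high on all 4 arrays, with a log2 difference of -0.72 (95% confidence interval -0.99 to -0.46, adjusted p = 0.00311 from limma), or 1.65-fold lower. Pdyn, which gives the dynorphins, read 4.72 and 5.28 on the ketamine-titled arrays and 6.87 and 7.06 on the saline-titled arrays. Its log2 difference was -1.96 (95% confidence interval -2.41 to -1.52, adjusted p = 0.000428 from limma), and this interval does not reach that of Penk.

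Crh read 4.74 and 5.23 on the ketamine-titled arrays, against 5.83 and 5.50 on the saline-titled arrays. The groups did not overlap, but the gap between the nearest arrays was smaller than the gap within either group. Crh had the weakest of the 9 calls, with a log2 difference of -0.68 (95% confidence interval -1.13 to -0.24, adjusted p = 0.0308 from limma).

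**Figure D2:**
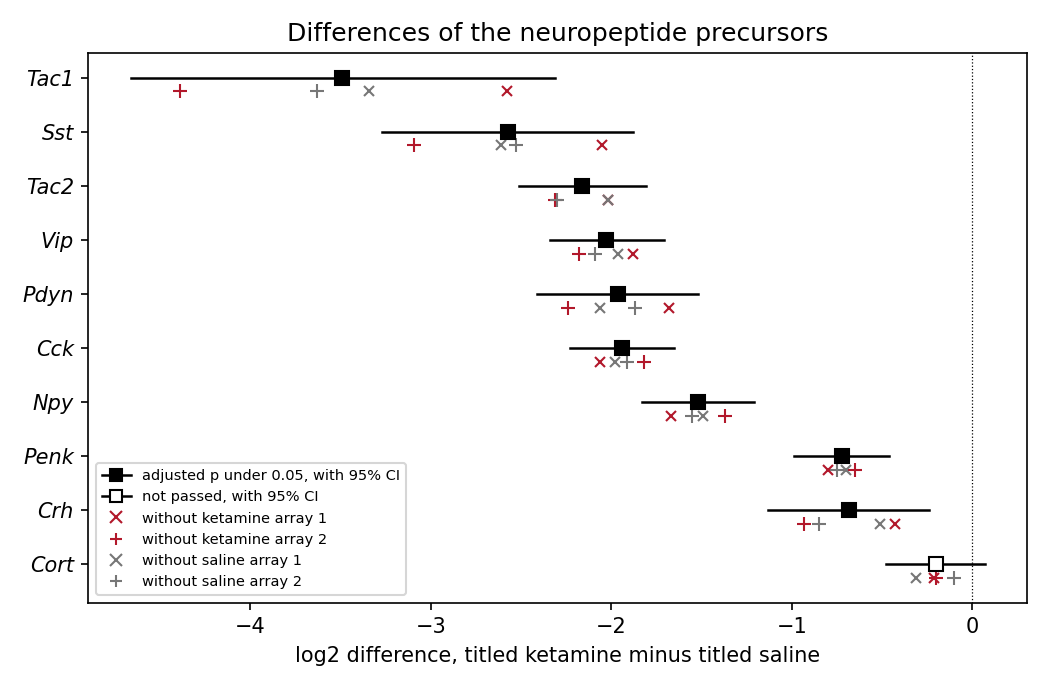
Log2 difference between the ketamine-titled arrays and the saline-titled arrays (x axis) for each precursor gene (y axis), as squares with 95% confidence intervals from limma, filled where the adjusted p was under 0.05; the small marks are the difference with 1 array left out. Tac1 spans -4.39 to -2.58 as arrays are left out, while the marks of Npy, Cck and Penk stay close to their squares, and the interval of Cort crosses 0.

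Which array is left out decides whether the calls stand. Without either ketamine-titled array limma passed 0 rows of 21789 (5974 and 6461 rows at an unadjusted p under 0.05), and so none of the 10 precursor genes, of which 8 and 9 had an unadjusted p under 0.05. Without saline-titled array 1 the calls on Tac1 (adjusted p = 0.0522) and Crh (adjusted p = 0.189) were lost, and without saline-titled array 2 that on Crh (adjusted p = 0.0775). The difference of Crh was -0.43 without ketamine-titled array 1. All 10 differences stayed below 0 with any array left out, which had to be so because the groups of no gene overlapped. With limma's trend and robust options, the calls on Sst (adjusted p = 0.0522) and Tac1 (adjusted p = 0.108) were lost.

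The precursors varied unevenly within the ketamine-titled group. Array 2 read higher than array 1 for 6 genes, namely Tac1 by 1.82, Sst by 1.04, Pdyn by 0.56, Crh by 0.50, Vip by 0.30 and Tac2 by 0.29. For the other 4 genes array 2 minus array 1 was -0.29 (Npy), -0.24 (Cck), -0.14 (Penk) and -0.01 (Cort). The median absolute gap of the 10 genes was 0.30, against 0.11 over all rows. Between the saline-titled arrays it was 0.16, against 0.14 over all rows. A larger gap between the ketamine-titled arrays was found for 1.64% of rows beside Pdyn and 2.53% beside Crh. Summed over the 10 genes, the log2 values were 62.81 and 66.63 on the ketamine-titled arrays and 82.29 and 81.71 on the saline-titled arrays.

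**Figure D3:**
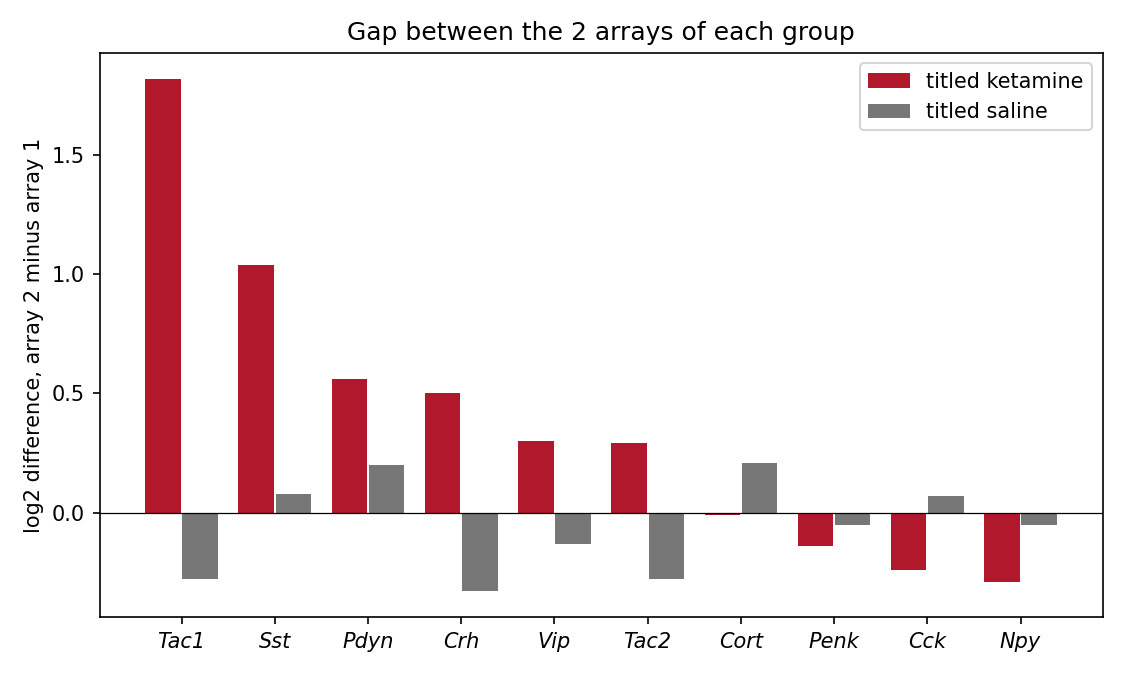
Log2 value of array 2 minus array 1 (y axis) within the ketamine-titled group (red bars) and within the saline-titled group (grey bars) for the 10 precursor genes (x axis). The red bars run from 1.82 for Tac1 to -0.29 for Npy, and the grey bars from 0.21 for Cort to -0.33 for Crh.

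The genes with the most similar values over the 4 arrays were sought for each precursor, by the root mean square difference after each gene was centred on its own mean, among 9877 genes at or above the median level. This is a description over only 4 arrays. Nearest to Tac1 were Necab1, which encodes a neuronal calcium-binding protein (0.302), and Gabra5, a GABA receptor subunit (0.334). Necab1 read 5.53 and 7.57 on the ketamine-titled arrays and 9.48 and 9.53 on the saline-titled arrays, and Gabra5 read 5.02 and 6.95 on the ketamine-titled arrays and 8.87 and 8.76 on the saline-titled arrays. Both had the wide gap between the ketamine-titled arrays that Tac1 had, which a search for similar values itself favours. Nearest to Sst were Cbln2, a secreted synaptic organizer (0.123), and Scn3a, a sodium channel subunit (0.148). Cck lay nearest to Chrm1, a muscarinic receptor (0.0331), and Npy to Coch (0.0178) and the receptor subunit Gabra4 (0.0375).

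Several neuropeptide genes are textbook targets of the transcription factor CREB, which binds the cAMP response element. Promoter windows from RefSeq (GRCm38.p6), from 250 bases before to 50 after a start site, were matched for 8 of the 10 genes, with 9 windows in all. The full element TGACGTCA, which reads the same on both strands, was in the window of 1 gene, Sst, and in 1.79% of all 32851 windows of 300 bases. Its core CGTCA, searched on both strands and contained in the full element in both orientations, was in the windows of 5 genes, Sst, Vip, Cck, Tac1 and Cort, and in 20.8% of all windows. The form TGCGTCA, which also holds the core, was in those of Cck, Tac1 and Cort, and in 2.12% of all windows. No core was in the windows of Npy, Tac2 and Pdyn. The windows of Sst, Tac1 and Cort are shown because Sst and Cort are relatives of which 1 passed and the other did not, and Tac1 had the largest measured difference. Capitals mark the core on either strand. That of Sst is chr16:23890795-23891094 on the minus strand, that of Tac1 is chr6:7554811-7555110 on the plus strand and that of Cort is chr4:149126714-149127013 on the minus strand.
Sst: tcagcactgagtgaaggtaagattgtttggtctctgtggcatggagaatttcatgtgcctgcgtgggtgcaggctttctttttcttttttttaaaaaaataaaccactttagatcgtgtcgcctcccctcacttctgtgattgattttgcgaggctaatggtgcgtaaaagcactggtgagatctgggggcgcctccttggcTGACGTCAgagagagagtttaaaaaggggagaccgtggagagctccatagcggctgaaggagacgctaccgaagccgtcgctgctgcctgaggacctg
Tac1: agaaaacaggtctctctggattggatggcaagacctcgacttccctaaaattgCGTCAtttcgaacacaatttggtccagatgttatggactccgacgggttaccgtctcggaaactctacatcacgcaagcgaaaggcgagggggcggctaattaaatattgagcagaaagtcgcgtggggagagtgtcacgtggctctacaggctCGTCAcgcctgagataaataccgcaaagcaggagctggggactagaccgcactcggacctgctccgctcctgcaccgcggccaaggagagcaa
Cort: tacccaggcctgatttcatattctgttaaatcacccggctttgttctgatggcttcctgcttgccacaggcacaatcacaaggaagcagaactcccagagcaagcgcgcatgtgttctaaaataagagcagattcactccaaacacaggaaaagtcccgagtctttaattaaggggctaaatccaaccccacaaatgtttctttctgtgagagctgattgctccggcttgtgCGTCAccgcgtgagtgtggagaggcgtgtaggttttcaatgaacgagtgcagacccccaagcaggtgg
The element of Sst began 48 bases before the start site. The cores of Tac1 began 197 and 43 bases before it, that of Cort 18 bases before it, and those of Cck and Vip, not shown, 47 and 79 bases before it. Of the 5 genes with a core Sst, Vip, Cck and Tac1 passed as lower and Cort did not pass, and Npy, Tac2 and Pdyn, without a core, passed as lower. The relation of the core to the differences was not tested.

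The receptors of these peptides were mostly lower as well. Of 22 receptor genes 15 passed as lower, 2 as higher and 5 did not pass, against 9.71% and 23.4% of all rows in these directions, and the median log2 difference was -0.60. Groups did not overlap for 19 of them, 16 lower and 3 higher (21.5% and 48.4% of all rows).

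Among the receptors of somatostatin and cortistatin, Sstr2 read 4.86 and 5.06 on the ketamine-titled arrays and 7.39 and 7.23 on the saline-titled arrays, a log2 difference of -2.35 (adjusted p = 4.2e-05 from limma). Sstr4 and Sstr1 were lower too, with differences of -2.15 and -1.31. These receptors inhibit adenylyl cyclase. Sstr3, a receptor of neuronal cilia, had a difference of 0.30 (adjusted p = 0.0667) and Sstr5 of 0.23 (adjusted p = 0.416), both not past the test, and Sstr5 was under the olfactory receptor limit on all 4 arrays.

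Among the receptors of neuropeptide Y, Npy1r read 4.38 and 4.75 on the ketamine-titled arrays, against 7.11 and 7.03 on the saline-titled arrays, a log2 difference of -2.50 (adjusted p = 5.5e-05 from limma). Its value on ketamine-titled array 1 was under the olfactory receptor limit, so the size is not resolved. Npy2r, a presynaptic autoreceptor, was lower, at -2.29, with both ketamine-titled arrays (3.27 and 3.70) under the limit and its size likewise not resolved. Npy5r passed at -0.39 and Npy6r at -0.60, and all 4 values of Npy6r lay under the limit. Npy4r, with a difference of 0.06, did not pass.

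The receptors of VIP and of CRH went in both directions. Vipr2, which raises cAMP on binding VIP, was higher, with 6.32 and 5.72 on the ketamine-titled arrays and 4.54 and 4.35 on the saline-titled arrays (log2 difference 1.58, adjusted p = 0.00126 from limma). Its value on saline-titled array 2 was under the limit of that array (4.43). Vipr1 was lower, at -0.59. Crhr1, the main brain receptor of CRH, was higher as well, with 8.30 and 7.76 on the ketamine-titled arrays and 6.43 and 6.54 on the saline-titled arrays (log2 difference 1.54, adjusted p = 0.000971 from limma). Crhr2 was lower, at -0.43. For both peptides the precursor and 1 receptor therefore passed in opposite directions. The cerebellar markers given above were higher on the same arrays as Vipr2 and Crhr1, and their part in these values was not tested.

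Cckbr, the cholecystokinin receptor that prevails in brain, read 5.27 and 5.67 on the ketamine-titled arrays and 7.47 and 7.78 on the saline-titled arrays, a log2 difference of -2.16 (adjusted p = 0.000188 from limma). Cckar, the receptor known from the gut and vagus nerve, had a difference of -0.24 that did not pass. Of the tachykinin receptors, Tacr3 (neurokinin B) and Tacr1 (substance P) were lower, at -0.93 and -0.78, and Tacr2 had a difference of -0.08 that did not pass. Of the opioid receptors, Oprk1, the dynorphin receptor, was lower, at -1.88, Oprd1, the enkephalin receptor, at -0.73, and Oprm1 at -0.34. Oprk1 (3.86) and Tacr3 (4.39) were under the limit on ketamine-titled array 1, and by how much they were lower is left unresolved.

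**Figure D4:**
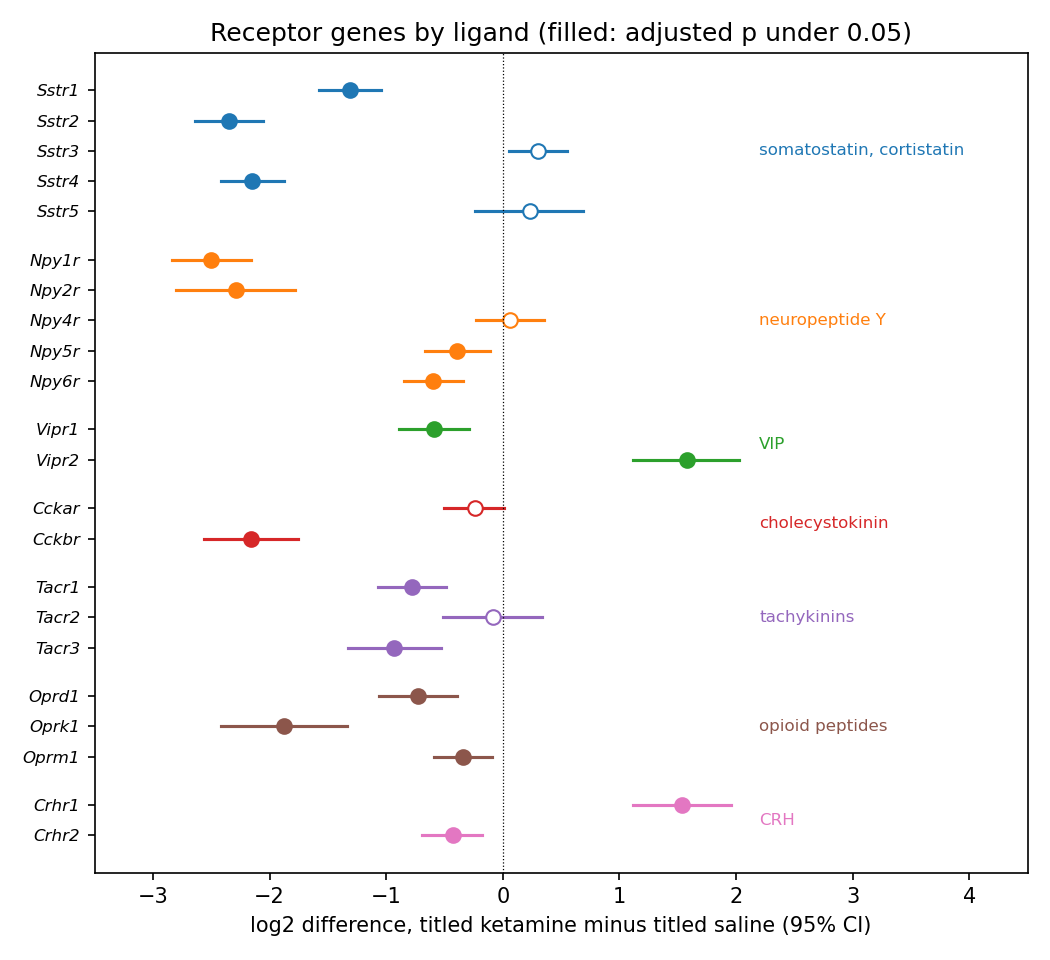
Log2 difference between the ketamine-titled arrays and the saline-titled arrays (x axis) for 22 receptor genes (y axis), grouped and coloured by ligand; lines are 95% confidence intervals from limma and filled points passed an adjusted p of 0.05. Vipr2 at 1.58 and Crhr1 at 1.54 are the only filled points above 0. Npy1r at -2.50 and Npy2r at -2.29 lie far below 0, with sizes not resolved because of values under the olfactory receptor limit.

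The genes that cut, amidate and store the peptides were compared as well. Of 18 such genes 7 passed as lower, 5 as higher and 6 did not pass, beside 9.71% and 23.4% of all rows passing as lower and as higher, and their median log2 difference was -0.29. Pam, which makes the C-terminal amide that most of these peptides need, read 8.23 and 8.56 on the ketamine-titled arrays and 9.88 and 9.86 on the saline-titled arrays, a difference of -1.48 (adjusted p = 0.000356 from limma). Ptprn, a membrane protein of dense-core vesicles, was lower, at -1.21. The prohormone convertase Pcsk1 was lower, at -0.97, and Cpe, the carboxypeptidase that trims the cut ends, at -0.49. Cadps2, a priming factor for vesicle release that is abundant in cerebellar granule cells, was higher by 1.66, and the convertase Pcsk6 by 1.35. Scg5, a chaperone of convertases, and Cadps had differences of -0.04 and 0.02 that did not pass.

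Of 13 genes of peptide breakdown and binding, 3 passed as lower, 2 as higher and 8 did not pass, beside 9.71% and 23.4% of all rows passing as lower and as higher, with a median of -0.04. Crhbp, which encodes the binding protein that sequesters CRH and is found in somatostatin interneurons, read 4.47 and 5.17 on the ketamine-titled arrays and 6.88 and 7.15 on the saline-titled arrays (log2 difference -2.20, adjusted p = 0.000556 from limma). Its value on ketamine-titled array 1 was under the limit. Mme, the enkephalin-degrading peptidase neprilysin, was lower, at -1.68, as was Dpp4, at -0.56. Ece1, an endothelin-converting enzyme, was higher by 0.67.

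Among 31 other brain neuropeptide precursors 14 passed as lower, 3 as higher and 14 did not pass, beside 9.71% and 23.4% of all rows in these directions, and the median log2 difference was -0.09. Pmch, the precursor of melanin-concentrating hormone, read 3.68 and 4.11 on the ketamine-titled arrays, both under the limit, against 7.04 and 7.25 on the saline-titled arrays, a difference of -3.26 (adjusted p = 3.8e-05 from limma). Nts, the neurotensin precursor, read 3.81 and 4.13 on the ketamine-titled arrays, again both under the limit, and 6.42 and 5.77 on the saline-titled arrays, a difference of -2.13. Grp, the precursor of gastrin-releasing peptide, and Trh, that of thyrotropin-releasing hormone, were both lower, at -1.69. Grp read 4.54 and 5.16 and Trh 4.22 and 5.38 on the ketamine-titled arrays, with array 1 under the limit for both. The sizes of these 4 differences are thus not resolved. Pmch, Trh, Avp, Oxt, Hcrt and Pomc are also among 11 hypothalamic markers, so that the 2 lists are not separate. Of the 11 markers 7 passed as lower and 4 did not pass. Among those that are not precursors, Sim1 (-0.50) and Six3 (-0.49) passed as lower. Nkx2-1 (-0.28), Six6 (0.32) and Otp (0.10) did not pass. The 11 markers summed to 55.39 and 56.73 on the ketamine-titled arrays and to 63.39 and 65.04 on the saline-titled arrays.

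Genes of inhibitory neurons other than the peptides differed in both directions. Of 16 such markers 9 passed as lower, 4 as higher and 3 did not pass, beside 9.71% and 23.4% of all rows in these directions, with sums of 117.74 and 117.56 on the ketamine-titled arrays and of 121.23 and 120.72 on the saline-titled arrays. Gad2, which encodes a GABA-synthesizing enzyme, was lower, at -0.51 (adjusted p = 0.0112 from limma). Gad1, which encodes the other such enzyme, read 10.85 and 10.64 on the ketamine-titled arrays and 10.54 and 10.56 on the saline-titled arrays, and its difference of 0.19 did not pass (adjusted p = 0.255 from limma). The vesicular GABA transporter gene Slc32a1 had a difference of 0.15 that did not pass either. Dlx1, Dlx5 and Dlx2, transcription factors of forebrain interneurons, were lower, at -2.10, -1.76 and -1.07. Lhx6 and Satb1, transcription factors of somatostatin and parvalbumin interneurons, were lower too, at -0.88 and -1.41, as was the neuregulin receptor gene Erbb4, at -0.95. Pvalb and Calb2, calcium-binding proteins that cerebellar neurons also make, were higher by 2.44 and 1.69. The other markers that passed as higher were Reln, by 1.62, and Prox1, by 0.65. Htr3a, a serotonin receptor of VIP interneurons, passed as lower and was under the limit on both ketamine-titled arrays.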

How the data were processed

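Per the labels, the deposited values are log2 expression made by the authors with RMA in the Affymetrix Expression Console, which corrects background, normalizes between arrays and summarises each transcript cluster. The software version and genome build were not given in the sources used here. RMA compresses low values and would partly remove a shift of most genes. Of 35556 rows, those with exactly 1 symbol (21789) were tested, and rows with several (1621) or none (12146) were left out. The 10 members matched RefSeq by gene number.

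Rows were fitted with limma (version 3.58.1, R 4.3.3) by lmFit and eBayes, without trend or robust options or a filter on dim rows, and adjusted by Benjamini-Hochberg. In lists a gene stands by its row with the highest mean, and 4 listed peptide genes were not analysed here. The members and lists were chosen with earlier results of these data known. The rule named all precursors, the 2 genes nearest to each, receptors of a precursor that did not pass, and up to 4 genes past the test with the largest difference from each other list. Of the nearest genes, only those of Tac1, Sst and Npy and the nearest of Cck are given above, and the rest are left out. The other receptors, Pcsk1, Cpe, Scg5, Cadps and the marker genes were named after their values were seen. An exact permutation test of 2 arrays against 2 cannot go below a two-sided p of 0.333, and the number of arrays limits the precision. The fit was tested on simulated data. Array medians ranged from 5.90 to 6.04. Arrays correlated at 0.996 within the ketamine-titled group, at 0.995 within the saline-titled group and at 0.959 to 0.969 between them. Alternatives covered scaling, moderation, dim rows, fold thresholds, a replicate block and each array left out.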

Additional observations from a re-analysis of the deposited data

How the results depend on the processing

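Of the alternatives, only quantile normalization and median centring could have turned the direction of a precursor difference, and all 10 stayed below 0 under both. The trend and robust options, the replicate block, the fold thresholds and the filter on level leave the difference of each gene kept as it was. Leaving out 1 array could not turn it, because the groups of no precursor overlapped. Calls on precursors numbered 9 after quantile normalization, after centring each array on its median, with the replicate number as a block and past 1.3-fold without a test, and 7 with the trend and robust options, where Sst (adjusted p = 0.0522) and Tac1 (adjusted p = 0.108) were lost, and past 2-fold. Over rows at or above the median level only 5 precursors remain, and all 5 passed. So did 5 of 5 receptors, 6 of 6 other precursors and 3 of 10 breakdown genes (the filter leaves fewer genes). The level is a mean over both groups, so a gene that is high only on the saline-titled arrays is kept. Tac1 was kept with means of 5.78 on the ketamine-titled and 9.27 on the saline-titled arrays, and Sstr2 with 4.96 and 7.31. The filter thus favours genes that differ, and these counts cannot show whether calls hold for bright genes. Past 2-fold there were 9 receptors (7 lower, 2 higher), 6 other precursors (all lower), 4 processing genes (2 lower, 2 higher) and 2 breakdown genes (both lower). Of all rows 1454 were past 2-fold, 649 lower and 805 higher. With 1 array left out, calls ranged from 0 to 8 for precursors, 0 to 13 for receptors, 0 to 12 for other precursors, 0 to 8 for processing genes, 0 to 5 for breakdown genes and 0 to 4574 for all rows; each 0 came from leaving out a ketamine-titled array, and a lone array is then assumed to vary like the other group. The median precursor difference ranged from -2.00 to -1.78 with 1 array left out, and was -2.05 after quantile normalization and -2.09 after centring.

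Among 94 genes of the 5 lists of peptide genes, both scalings changed the sign of 8, of which 0 had passed. Of all rows 5109 passed as higher and 2115 as lower; after quantile normalization these were 3311 and 3074, and after centring 3210 and 3213. The replicate numbers do not pair the arrays by any label, and the differences between arrays 1 and 2 correlated at 0.034 between the groups. With the replicate block 9 precursors and 8250 rows passed, against 7224 without it; the block added Npw and Chga to the calls and removed none in the 5 lists. Values under the olfactory receptor limit, as for Tac2 and Vip, leave the size of a difference unresolved.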
